A study of Homo sapiens with 11 samples.

Results

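The clustered protocadherins are cell surface adhesion proteins of the cadherin family, encoded by genes that stand in a row on chromosome 5. All genes with a symbol of the alpha (PCDHA, PCDHAC), beta (PCDHB) or gamma (PCDHGA, PCDHGB, PCDHGC) series were taken. These are 53 of the 26237 genes with a promoter value in the ChIP-Seq tables and the same 53 of the 28252 genes in the RNA-Seq tables. The alpha cluster has 15 members, 13 of them numbered and 2 of the C-type (PCDHAC1, PCDHAC2). The beta cluster has 16 members. The gamma cluster has 22, namely 12 PCDHGA, 7 PCDHGB and 3 C-type genes (PCDHGC3, PCDHGC4, PCDHGC5). They lie in this order on chromosome 5, all on the plus strand, between positions 140786136 and 141512977 in GENCODE version 44 on GRCh38.

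The study asked which changes in gene activity outlast an exposure to nickel. H3K4me3, a histone mark found at the start of active genes, was measured by ChIP-Seq in BEAS-2B cells, an immortalised line of human bronchial epithelium, in 1 library each of untreated (UT), nickel-exposed (Ni-E) and nickel-washed-out (Ni-W) cells. RNA-Seq was done in RT4 cells, a line from a non-invasive human bladder cancer, in 2 libraries of each of the same 3 groups. Ni-E cells of both lines had 100 μM NiCl2 for 6 weeks. RT4 Ni-W cells were then grown for 2 weeks without nickel, whereas the BEAS-2B Ni-W population was expanded from a single colony and had been free of nickel for more than 6 months. The labels also give 2 weeks without nickel for both lines, but describe the longer time for the BEAS-2B population that was examined, and the time of its library is taken from there. A difference between BEAS-2B Ni-W and UT cells cannot be told apart from a difference between 1 clone and a mixed population. The 2 lines were never measured with the same assay in these tables, and a level of H3K4me3 in BEAS-2B cells is not set against an RNA level of BEAS-2B cells here.

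In neurons, each cell uses a small and partly random set of these genes, and the proteins on its surface let it tell its own processes from those of its neighbours. In the alpha cluster every first exon has a promoter of its own and is spliced to constant exons that all alpha transcripts share. The gamma cluster is built the same way with its own constant exons, whereas each beta gene is a single exon. Promoter choice is known to depend on the CTCF protein and cohesin, which bind near a conserved sequence element with the core CGCT that stands shortly before the start of most members, and on DNA methylation. The C-type genes are known to be used more evenly across cells than the others.

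Promoters of 47 of the 53 members could be matched by symbol in RefSeq (GRCh38.p14), each as 250 bases before and 50 bases after the start. PCDHA3, PCDHA13, PCDHB6, PCDHB11, PCDHGA12 and PCDHGC5 had no entry. The 120 bases before the start are shown for 10 members on which the results turn, with each CGCT on the gene's own strand in capitals. The first group is alpha, with the members of the largest H3K4me3 differences and PCDHA9, in which no core was found.
PCDHA9, chr5:140848262-140848381: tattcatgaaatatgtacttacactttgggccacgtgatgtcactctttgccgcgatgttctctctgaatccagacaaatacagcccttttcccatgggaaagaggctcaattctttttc
PCDHA11, chr5:140868837-140868956: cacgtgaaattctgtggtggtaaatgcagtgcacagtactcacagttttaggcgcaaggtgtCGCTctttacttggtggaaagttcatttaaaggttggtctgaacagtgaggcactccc
PCDHAC1, chr5:140926179-140926298: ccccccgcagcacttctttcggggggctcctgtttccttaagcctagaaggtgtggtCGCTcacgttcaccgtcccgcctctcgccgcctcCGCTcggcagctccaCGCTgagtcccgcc
PCDHAC2, chr5:140966356-140966475: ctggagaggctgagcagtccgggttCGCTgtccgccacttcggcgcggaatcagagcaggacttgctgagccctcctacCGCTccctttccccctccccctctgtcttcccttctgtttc
The beta promoters are those of PCDHB1, the first of its cluster, and of a pair with lower H3K4me3 in Ni-W cells.
PCDHB1, chr5:141051254-141051373: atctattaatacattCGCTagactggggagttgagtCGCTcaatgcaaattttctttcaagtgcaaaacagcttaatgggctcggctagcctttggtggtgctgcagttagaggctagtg
PCDHB12, chr5:141208599-141208718: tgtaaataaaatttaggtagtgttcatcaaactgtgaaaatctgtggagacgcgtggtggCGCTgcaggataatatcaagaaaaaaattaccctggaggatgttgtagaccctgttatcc
PCDHB16, chr5:141182267-141182386: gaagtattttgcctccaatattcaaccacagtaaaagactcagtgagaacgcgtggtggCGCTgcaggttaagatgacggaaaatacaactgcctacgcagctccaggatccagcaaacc
The gamma promoters are those of a pair with higher H3K4me3 in Ni-W cells and of PCDHGC3, the member with the most H3K4me3 and the most RNA.
PCDHGA8, chr5:141392513-141392632: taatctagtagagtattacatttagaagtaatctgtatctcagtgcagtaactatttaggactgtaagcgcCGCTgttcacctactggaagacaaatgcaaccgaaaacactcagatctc
PCDHGA9, chr5:141402658-141402777: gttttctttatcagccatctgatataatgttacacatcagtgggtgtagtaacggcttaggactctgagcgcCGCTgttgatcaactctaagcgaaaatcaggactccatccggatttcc
PCDHGC3, chr5:141475846-141475965: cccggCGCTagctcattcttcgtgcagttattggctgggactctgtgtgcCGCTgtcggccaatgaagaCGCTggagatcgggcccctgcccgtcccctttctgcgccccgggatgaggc

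CGCT was present on the gene's own strand in 46 of the 47 promoters, against 54.1% of the 27305 promoters in the table. In the stretch from 85 to 30 bases before the start it was present in 42 of 47, against 18.1% of all promoters. On either strand the shares of all promoters were 69.4% in the 300 bases and 31.0% in that stretch, with the same 46 and 42 members. The letters around the core differed by cluster. CATGATGTCGCT was present in 8 of 13 alpha promoters, all of numbered genes, and these 8 were the only ones among the 27305. GGTGGCGCT, as in PCDHB12 and PCDHB16, was present in 13 of 14 beta promoters, the exception being PCDHB1, and in 0.311% of all promoters. GCGCCGCTG, as in PCDHGA8 and PCDHGA9, was present in 10 of 20 gamma promoters and in 0.571% of all. On either strand GGTGGCGCT was in 0.524% of all promoters, GCGCCGCTG in 1.25%, and CATGATGTCGCT again in these 8 alone. These 3 longer strings, which all contain the core, were picked from the members' own promoters. The promoters of the C-type genes PCDHAC1, PCDHAC2, PCDHGC3 and PCDHGC4 had a GC content of 59.0 to 66.0%, whereas those of the other 43 members had 32.3 to 51.3%.

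**Figure D1:**
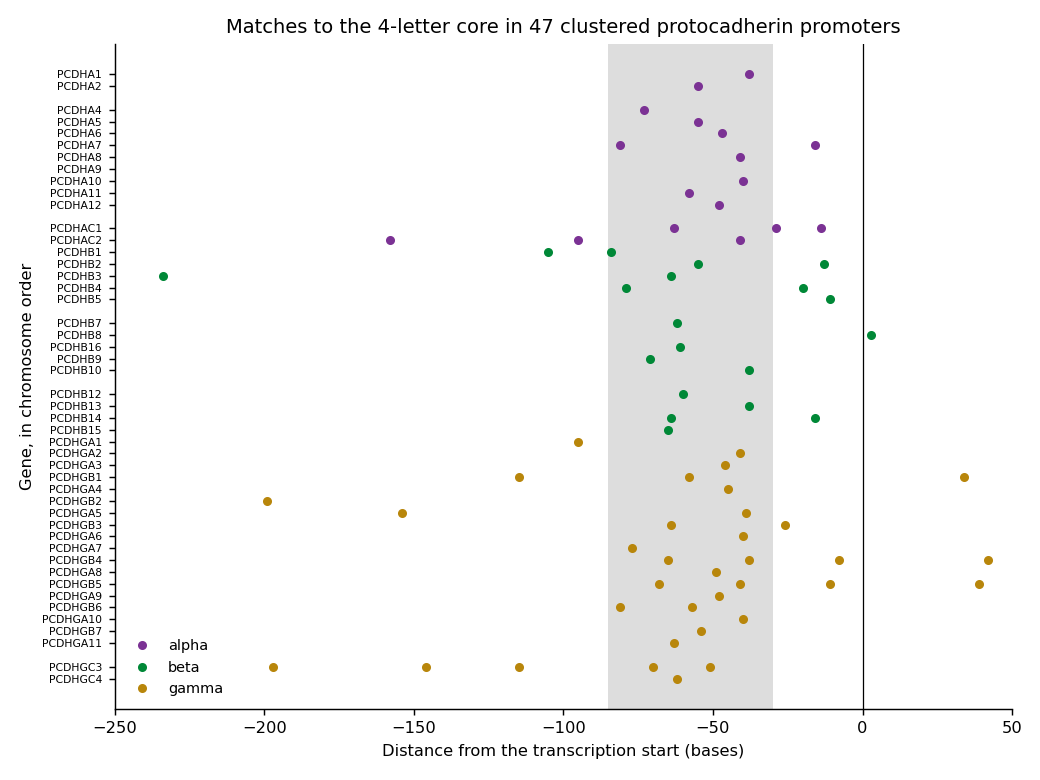
Distance of each match to the 4-letter core from the transcription start (x axis, bases) for 47 members in chromosome order (y axis), coloured by cluster, with the stretch from 85 to 30 bases before the start in grey. In 42 of the 47 promoters at least 1 match falls in the grey stretch, and PCDHA9 has none.

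The ChIP-Seq libraries held 28385725 reads in UT, 37493949 in Ni-E and 29933551 in Ni-W cells, as recovered from the deposited values. The Ni-W library stood apart, with 22.9% of its reads in promoters against 37.6% and 36.0%, and with a median promoter at 1.12 RPKM (reads scaled by window length and library depth) against 1.57 in UT and 1.39 in Ni-E cells. All changes are therefore given after each value was divided by the median of its library, as in the chromatin dynamic score of the study, the difference of the square roots of the scaled levels. The RNA-Seq libraries held between 17075833 and 27736454 estimated counts. All 14 urothelial marker genes checked had a mean of at least 1 TPM in RT4 cells. For Ni-E against UT cells edgeR called 1 of them, UPK1A, lower (log2 fold change -2.27, adjusted p 0.0376). DESeq2 called 3, and 4 had an unadjusted p below 0.05 in each tool. For Ni-W against UT cells both tools called 0. In UT BEAS-2B cells the promoters of KRT7, KRT8 and KRT18 carried H3K4me3 at 7.15 to 7.33 RPKM, and EPCAM and NKX2-1 had 2.21 and 2.76 RPKM. The epithelial markers CDH1 and KRT19 and the basal airway markers KRT5 and TP63 were below the library median at 1.02, 0.432, 0.220 and 0.388 RPKM. The mesenchymal genes VIM, CDH2, COL1A1, PDGFRB and PDGFRA had 8.95, 14.6, 8.74, 6.98 and 2.61 RPKM, whereas COL1A2 and COL3A1 were below the median at 0.476 and 0.167.

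H3K4me3 at most clustered protocadherin promoters of BEAS-2B cells was low but above the counting floor of 3 reads. This floor is not the background of the ChIP, and the input libraries of UT and Ni-W cells were not used here. The 5 blood genes checked had a median of 0.211 RPKM in UT cells, in a range from 0 to 2.06. The median member had 0.528 RPKM in UT, 0.620 in Ni-E and 0.526 in Ni-W cells, and 44 of the 53 lay below the median of the library in all 3 libraries. The lowest value was that of PCDHA6 in UT cells, with 19 reads and 0.167 RPKM (95% interval 0.107 to 0.261), against a floor of 3 reads or 0.0264 RPKM in that library. All 53 members passed the filter of a mean of 0.2 RPKM, and 52 of them lay between 0.2 and 2 RPKM.

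PCDHGC3, a C-type gene that is broadly expressed outside the nervous system, was the exception. It had 5.87 RPKM in UT (95% interval 5.45 to 6.34), 5.09 in Ni-E (4.74 to 5.46) and 2.96 RPKM in Ni-W cells (2.67 to 3.29). This level was thus the highest of all members in each library, and in UT cells it exceeded 71.5% of all promoters. Among the alpha genes the highest mean levels were those of PCDHAC2, PCDHAC1 and PCDHA4, of which PCDHA4 had 1.07, 1.37 and 0.768 RPKM in the UT, Ni-E and Ni-W libraries. In the beta cluster they were those of PCDHB5 (1.64, 1.9 and 1.5 RPKM), PCDHB14 (1.55, 1.39 and 1.07) and PCDHB2 (1.21, 1.66 and 0.869). After PCDHGC3, the gamma genes PCDHGA1 (1.54, 1.46 and 1.00 RPKM) and PCDHGB7 (1.22, 1.25 and 1.14) followed. The other C-type gamma genes were low, with 0.370, 0.453 and 0.259 RPKM at PCDHGC4 and 0.520, 0.593 and 0.409 RPKM at PCDHGC5.

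**Figure D2:**
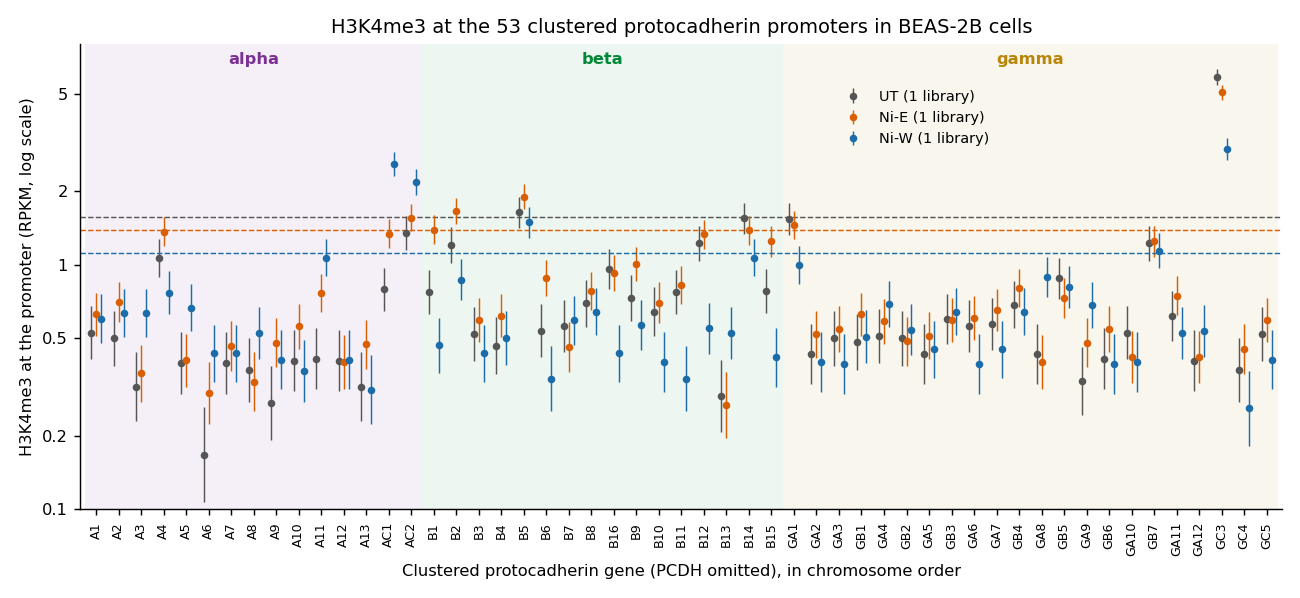
H3K4me3 at the promoter (y axis, RPKM on a log scale) of the 53 members in chromosome order (x axis) in 1 BEAS-2B library each of the UT, Ni-E and Ni-W groups, with 95% Wilson intervals from the reads and dashed lines at the median promoter of each library. Most members lie under the dashed lines, PCDHGC3 lies above them in all 3 libraries, and PCDHAC1 and PCDHAC2 lie above the line of their library in Ni-W cells.

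During exposure, H3K4me3 relative to the library median was at least 1.5-fold higher than in UT cells at 14 of the 53 promoters and at least 1.5-fold lower at 0. Over the 21648 promoters whose mean reached 0.2 RPKM, 8.87% were higher and 1.37% lower by this rule. Of the 9324 promoters with a mean of 0.2 to 2 RPKM, among which nearly all members lie, 20.2% were higher and 3.04% lower. The members' share of 26.4% is thus close to that of promoters with as little signal. With 1 library a condition there is no replicate check, and no test was made. By cluster, 7 of 15 alpha, 6 of 16 beta and 1 of 22 gamma promoters were higher. PCDHA6, 1 of the 7, had 0.167 RPKM in UT cells. It passed the filter only through 0.300 in Ni-E and 0.434 in Ni-W cells.

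The 3 highest scores for Ni-E against UT cells were at PCDHB1, PCDHAC1 and PCDHB15. PCDHB1 had 0.775 RPKM (95% limits 0.629 to 0.955) before and 1.39 RPKM (1.22 to 1.60) during exposure, a scaled ratio of 2.03-fold and a score of 0.30. PCDHB15 had 0.784 and 1.25 RPKM, a scaled ratio of 1.80-fold. The intervals of UT and Ni-E cells did not overlap at either promoter. The 3 lowest scores lay between -0.03 and -0.02, at PCDHGA10 (0.528 and 0.420 RPKM), PCDHB7 (0.564 and 0.460) and PCDHGB5 (0.881 and 0.733), and all were within counting error. The score of a promoter has a counting error of 0.0510 (SE), the same at every level, and 21 members were higher and 0 lower by more than the 95% range of this error. The share of all promoters past this range was not computed. With the same scaling, 75.9% of all promoters tested and 68.7% of those of 0.2 to 2 RPKM had a ratio above 1.

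In Ni-W cells, 19 members were at least 1.5-fold higher and 3 lower than in UT cells after median scaling. The background was 16.8% higher and 14.7% lower over all promoters tested, and 36.4% higher and 9.6% lower over those of 0.2 to 2 RPKM. The members' 35.8% and 5.66% are thus close to the shares of promoters with low signal. By cluster, 11 of 15 alpha promoters were higher and 0 lower, 2 of 16 beta promoters were higher and 3 lower, and 6 of 22 gamma promoters were higher and 0 lower. The 11 again include PCDHA6, which at 0.167 RPKM in UT cells passed the filter only through the Ni-E and Ni-W libraries. The median log2 ratio was 0.99 for alpha, -0.02 for beta and 0.38 for gamma members, beside -0.17 over all promoters tested and 0.30 over those of 0.2 to 2 RPKM. The comparisons of Ni-E and of Ni-W with UT cells share the UT library. The difference between clusters was not tested, and promoters of 1 library are not replicates.

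PCDHAC1, the first C-type gene of the alpha cluster, had the largest difference. It had 0.793 RPKM in UT (0.645 to 0.974), 1.34 in Ni-E (1.17 to 1.54) and 2.59 in Ni-W cells (95% limits 2.32 to 2.89), from 90, 201 and 310 reads. No 2 of these intervals overlapped, and the scaled ratio of Ni-W to UT cells was 4.57-fold with a score of 0.81 (SE 0.0572 from counting). PCDHAC2, the other C-type alpha gene, had 1.35, 1.56 and 2.18 RPKM in the same order, a scaled ratio of 2.27-fold for Ni-W against UT. Its intervals in RPKM overlapped between UT (1.15 to 1.58) and Ni-E (1.37 to 1.77) but not between either of these and Ni-W (1.93 to 2.46). After median scaling its score for Ni-E against UT was 0.13, past the 95% range of counting error.

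PCDHA11 had 0.414, 0.767 and 1.07 RPKM from 47, 115 and 128 reads, and its scaled ratio of Ni-W to UT cells was 3.62-fold. Only the UT value stood clear of the others, with an interval of 0.311 to 0.550 against 0.639 to 0.920 and 0.899 to 1.27. Among alpha genes the smallest scaled ratio of Ni-W to UT was 1.01-fold at PCDHA4, and all 15 ratios were above 1 after library-median scaling. With this scaling 38.9% of all promoters tested and 65.6% of those of 0.2 to 2 RPKM were above 1. Without it 12 of the 15 alpha ratios were above 1, with PCDHA4 at 0.720-fold, against 19.4% of all promoters tested. After quantile normalization 11 were above 1, against 44.4%. After scaling by the median of promoters of 0.2 to 2 RPKM 12 were above 1, against 41.1% of such promoters.

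The 5 lowest scores included 4 beta genes, PCDHB12, PCDHB16, PCDHB11 and PCDHB15, next to PCDHGC3. PCDHB12 had 1.22 RPKM in UT (limits 1.04 to 1.45), 1.33 in Ni-E (1.16 to 1.53) and 0.551 RPKM in Ni-W cells (0.433 to 0.701), a scaled ratio of Ni-W to UT of 0.631. PCDHB16 had 0.960, 0.927 and 0.434 RPKM, and PCDHB11 had 0.775, 0.827 and 0.342 RPKM, with ratios of 0.633 and 0.618. At these 3 promoters UT and Ni-E cells overlapped and Ni-W cells lay below both. PCDHB15 had 0.784, 1.25 and 0.418 RPKM, and its ratio of 0.747 did not reach 1.5-fold.

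PCDHB13 was the beta gene with the largest difference in the other direction, with 0.291, 0.267 and 0.526 RPKM from 33, 40 and 63 reads and a scaled ratio of 2.53-fold for Ni-W against UT. It was named after its values were seen. The interval of 0.207 to 0.408 in UT cells did not reach that of 0.411 to 0.673 in Ni-W cells.

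In the gamma cluster, PCDHGA8 and PCDHGA9 had the largest ratios of Ni-W to UT cells. PCDHGA8 had 0.432 RPKM in UT, 0.400 in Ni-E and 0.894 in Ni-W cells, and the scaled ratio was 2.90-fold. PCDHGA9 had 0.335, 0.480 and 0.685 RPKM and a ratio of 2.87-fold. At PCDHGA8 Ni-W cells stood clear of both other libraries by their intervals, whereas at PCDHGA9 they overlapped with Ni-E cells. The gene between them on the chromosome, PCDHGB5, had 0.881, 0.733 and 0.810 RPKM and a ratio of 1.29-fold, below 1.5-fold. PCDHGC3 had the lowest score of all members (-0.31), but with its high level this was a ratio of 0.707, less than 1.5-fold.

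**Figure D3:**
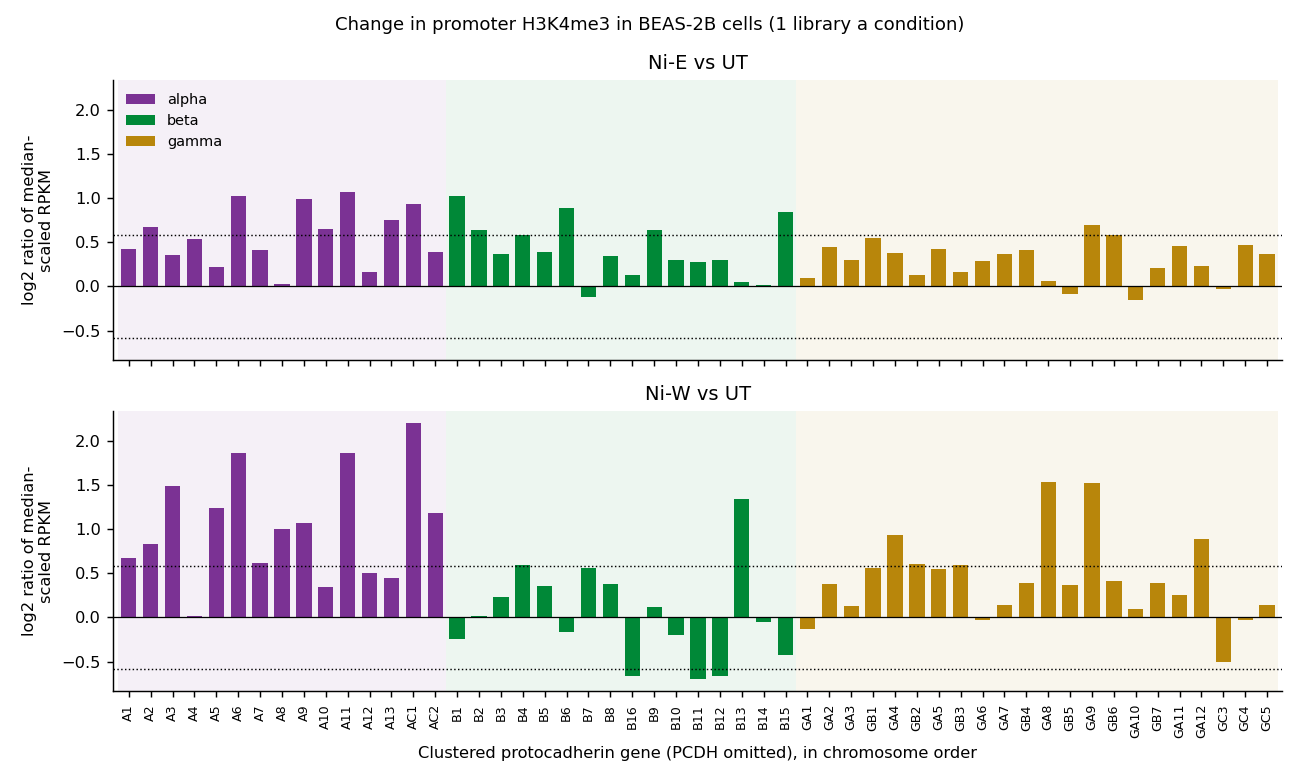
Log2 ratio of the median-scaled RPKM (y axis) in Ni-E against UT cells (top) and Ni-W against UT cells (bottom) for the 53 members in chromosome order (x axis), coloured by cluster, with dotted lines at 1.5-fold. With this scaling the 15 alpha bars for Ni-W cells all stand above 0 (11 or 12 of them under the other scalings), with PCDHAC1 highest at 2.19, whereas 8 of the 16 beta bars stand below 0.

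How far the members differed from UT cells in Ni-W cells depended on the scaling. On the deposited RPKM without median scaling, 9 members (17.0%) were at least 1.5-fold higher and 9 (17.0%) lower, against 7.98% and 54.9% of all promoters tested. After quantile normalization the numbers were 9 and 7, against 12.3% and 10.9% of all promoters, and after scaling by the median of promoters of 0.2 to 2 RPKM alone they were 9 and 8, where 17.9% of these promoters were higher and 29.4% lower. Thus the share of higher among all members past 1.5-fold went from 86.4% with the library median to 50.0% without it. In these 3 alternatives, 6 of 15 alpha members were higher and 0 lower, whereas 1 of 16 beta members was higher and 7 were lower. Of the gamma members 2 were higher in each of them, and 2, 0 and 1 were lower in the same order, with a median log2 ratio of -0.10, -0.02 and -0.10 in place of 0.38. PCDHAC1 had 3.26-fold and PCDHA11 2.58-fold more deposited RPKM in Ni-W than in UT cells, PCDHGA8 2.07-fold, and PCDHB12 and PCDHB16 0.450-fold and 0.452-fold. For Ni-E against UT cells, 7, 8 and 6 members (13.2%, 15.1% and 11.5%) were higher under these alternatives and 0 lower. Over all promoters tested, 5.15% were higher and 3.28% lower without median scaling, and 3.91% and 4.05% after quantile normalization. In the last alternative 7.63% of the promoters of 0.2 to 2 RPKM were higher and 11.5% lower.

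**Figure D4:**
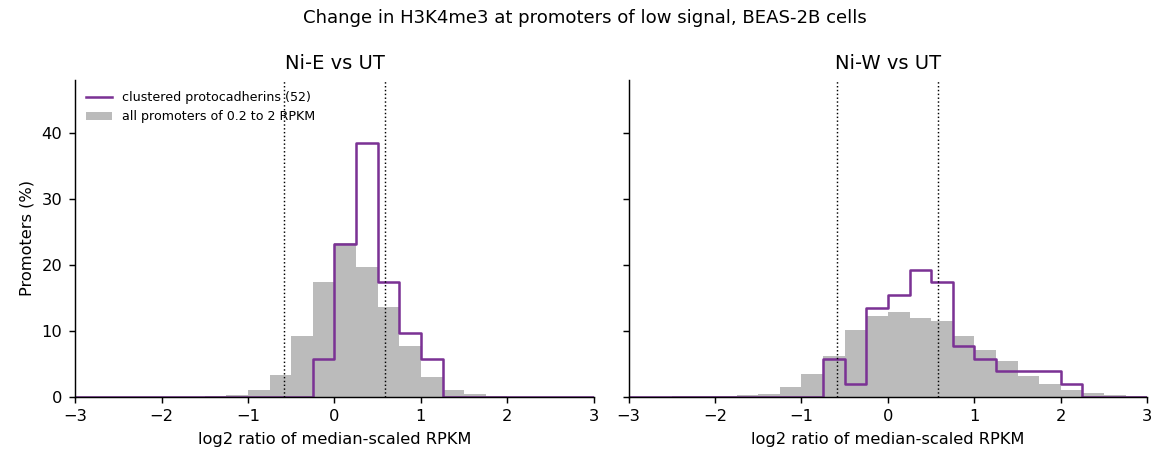
Share of promoters (y axis, %) by log2 ratio of median-scaled RPKM (x axis) in Ni-E against UT (left) and Ni-W against UT cells (right), for all 9324 promoters of 0.2 to 2 RPKM (grey bars) and the 52 members among them (line), with dotted lines at 1.5-fold. The members' line peaks between 0.25 and 0.5 in both panels and lies inside the spread of the grey bars.

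Between Ni-W and Ni-E cells, 12 members were higher and 7 lower by at least 1.5-fold, against 12.1% and 25.3% of all promoters tested and 26.0% and 16.3% of those of 0.2 to 2 RPKM. The 7 lower ones were all beta genes. PCDHB1 and PCDHB15, which had been among the highest in Ni-E cells, had scaled ratios of 0.416 and 0.415 for Ni-W against Ni-E, with 0.468 (95% interval 0.360 to 0.607) and 0.418 RPKM (0.317 to 0.550) in Ni-W cells. In both genes the Ni-W level was also below the UT level in RPKM, by intervals that did not overlap. Without scaling, however, 54.9% of all promoters tested were at least 1.5-fold lower in Ni-W than in UT cells. After median scaling the difference of both genes from UT cells was below 1.5-fold. Their scores of -0.06 and -0.10 were within counting error. Of the 15 alpha genes 7 were higher in Ni-W than in Ni-E cells and 0 lower. Without median scaling 4 of them were higher and 3 lower, and over all members 6 (11.3%) were higher and 15 (28.3%) lower, against 7.5% and 52.1% of all promoters tested. With quantile normalization these members numbered 10 and 12, against 12.7% and 11.7%, and with scaling by the median of promoters of 0.2 to 2 RPKM 10 and 11, against 19.7% and 25.5% of such promoters.

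A few neighbouring windows share reads, because each promoter window spans 2 kb on either side of the start. The starts of PCDHGB3 and PCDHGA6 lie 3649 bp apart both in GENCODE and in RefSeq. Those of PCDHGB7 and PCDHGA11 lie 3402 and 3374 bp apart, and those of PCDHGB4 and PCDHGA8 2459 bp apart in GENCODE but not in RefSeq, where PCDHGA8 starts further downstream. The members are also similar in sequence, and reads of 50 bases from near-identical stretches could be placed at more than 1 of them. How such reads were treated is not given in the sources used here for the ChIP-Seq.

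In RT4 cells most clustered protocadherins were at or near 0. Of the 53, 7 had no counts in any of the 6 libraries, 48 stayed below 0.5 TPM (transcript level scaled by length and depth) in every library, and 4 had a mean of at least 1 TPM, against 46.5% of all genes. Only 11 members passed edgeR's expression filter, 5 alpha, 2 beta and 4 gamma. The other 42 had at most 17.9 estimated counts in a library. In bulk samples a low level can come from few cells or from little RNA in each cell, and these cannot be told apart.

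PCDHGC3 was the most abundant member, with 27.3 and 26.7 TPM in UT, 26.6 and 26.4 in Ni-E, and 23.6 and 29.3 in Ni-W cells. It held 78.1 to 91.3% of the estimated counts of the gamma cluster. It was also first in H3K4me3 in UT BEAS-2B cells. Over all 53 members, however, the mean TPM in RT4 cells and the mean RPKM over the 3 BEAS-2B libraries had a Spearman rho of 0.0578. This is given as a description over genes and 2 different cell lines.

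PCDHA12 had 4.58 and 1.67 TPM in UT, 4.96 and 2.59 in Ni-E, and 6.03 and 1.38 in Ni-W cells. PCDHGB5 had 3.54 and 1.15, 3.44 and 1.60, and 3.06 and 1.11 TPM in the same order. In both genes replicate 1 was higher than replicate 2 in each of the 3 groups, by 1.71 to 3.33-fold for PCDHA12 and by 1.93 to 2.65-fold for PCDHGB5 in CPM (counts scaled by library depth with TMM factors), and this spread was larger than any difference between groups. PCDHA11 had 1.72 and 1.12, 1.56 and 1.27, and 1.2 and 0.94 TPM. PCDHA10, the third alpha gene, had 0.24 and 0.26, 0.27 and 0.33, and 0.23 and 0.3 TPM, and PCDHGB2, the third gamma gene, had 0.38 and 0.14, 0.34 and 0.26, and 0.38 and 0 TPM. PCDHA10, PCDHA11 and PCDHA12 together held 84.9 to 97.9% of the alpha counts.

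Which alpha or gamma gene a read from the constant exons belongs to has to be estimated. Of the values above 0, 16.3% were whole numbers of counts for alpha members and 38.3% for gamma members, against 100% for beta members and 96.6% over all genes. A sum over a cluster does not depend on how its counts were split among members. The alpha members summed to 20.1 and 11.9 CPM in UT, 23.8 and 16.3 in Ni-E, and 22.1 and 11.9 in Ni-W cells. The gamma members summed to 59.1 and 49.6, 59.5 and 51.9, and 51.6 and 51.4 CPM. In both clusters the groups overlapped.

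The beta members, whose counts were all whole numbers, summed to 0.698 and 0.981 CPM in UT, 2.31 and 1.78 in Ni-E, and 1.84 and 1.04 in Ni-W cells, from 13 to 49 counts a library. Both Ni-E libraries thus lay above both UT libraries, with a mean of 2.05 ± 0.375 against 0.84 ± 0.2 CPM (SD, n = 2), a ratio of 2.44-fold. Of the 14502 single genes tested, 20.3% also had both Ni-E libraries above both UT libraries in CPM. With 2 libraries against 2 an exact permutation test cannot go below 0.33, and no test of the sum was made. The leading beta genes were PCDHB14, with 0.21 and 0.08 TPM in UT, 0.4 and 0.25 in Ni-E, and 0.43 and 0.14 in Ni-W cells, PCDHB11 (0.05 and 0.19, 0.2 and 0.17, 0.27 and 0.08 TPM) and PCDHB13, which was not tested and reached 0.17 TPM.

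In edgeR's quasi-likelihood test, 0 of the 11 tested members were called in any of the 3 comparisons at an adjusted p below 0.05 and a 1.5-fold change. Over all 14502 genes tested, 2.17% were called for Ni-E against UT, 0.6% for Ni-W against UT and 0.0% for Ni-W against Ni-E. At an unadjusted p below 0.05 there was 1 member for Ni-E against UT and 0 for the others. DESeq2 called 0 members in each comparison, with 1, 0 and 0 at an unadjusted p below 0.05. limma on log2(TPM + 1) and on log2(TPM + 0.1) also called 0. With the replicate number as a block, edgeR called 2 members for Ni-E against UT, PCDHAC1 and PCDHAC2, and 0 in the other comparisons. Over all genes this block raised the calls for Ni-E against UT from 314 to 1833, and no label says what same-numbered libraries share.

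The 1 member at an unadjusted p below 0.05 in edgeR without this block was PCDHAC1. It had 2 and 0 estimated counts in UT, 28.2 and 14.7 in Ni-E, and 7 and 2.61 in Ni-W cells. In CPM of rounded counts and in TPM both Ni-E libraries were above both UT libraries. The Ni-W libraries, with 0.402 and 0.116 CPM, lay between the groups in CPM, but in TPM Ni-W replicate 2 (0.03) was below UT replicate 1 (0.08). Its log2 fold change for Ni-E against UT was 4.30 ± 1.20 (SE), with an unadjusted p of 0.0123 and a Benjamini-Hochberg adjusted p of 0.186 in edgeR. From the summed counts of 43 against 2, the ratio of library-scaled counts was 20.5-fold with a 95% exact interval of 5.33 to 174, which covers counting error only. PCDHAC2 had 4 and 1 counts in UT, 17.9 and 9.08 in Ni-E, and 14.1 and 7.26 in Ni-W cells. In CPM all 4 libraries of Ni-E and Ni-W cells were above both UT libraries, whereas in TPM the groups overlapped, with 0.16 and 0.02 in UT, 0.33 and 0.1 in Ni-E, and 0.3 and 0.08 in Ni-W cells. The log2 fold changes in edgeR were 2.39 ± 1.05 for Ni-E (adjusted p 0.471) and 2.09 ± 1.08 for Ni-W cells (adjusted p 0.747), and the ratios were 5.14-fold (1.95 to 17.1) and 4.22-fold (1.55 to 14.3). Over all genes tested, both Ni-E libraries were above both UT libraries in CPM in 20.3%, and both Ni-W libraries in 15.1%. The C-type genes PCDHGC4 and PCDHGC5 had at most 0.08 and 0.27 TPM and were not tested.

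For the abundant members the differences between groups were small against the spread. The log2 fold change of PCDHGC3 was -0.01 ± 0.17 (SE) for Ni-E and -0.04 ± 0.17 for Ni-W against UT cells. It was 0.31 ± 0.68 and 0.15 ± 0.68 for PCDHA12, 0.14 ± 0.62 and -0.22 ± 0.62 for PCDHGB5, and -0.16 ± 0.25 and -0.28 ± 0.26 for PCDHA11. All adjusted p-values of these 4 genes in edgeR were at least 0.992.

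**Figure D5:**
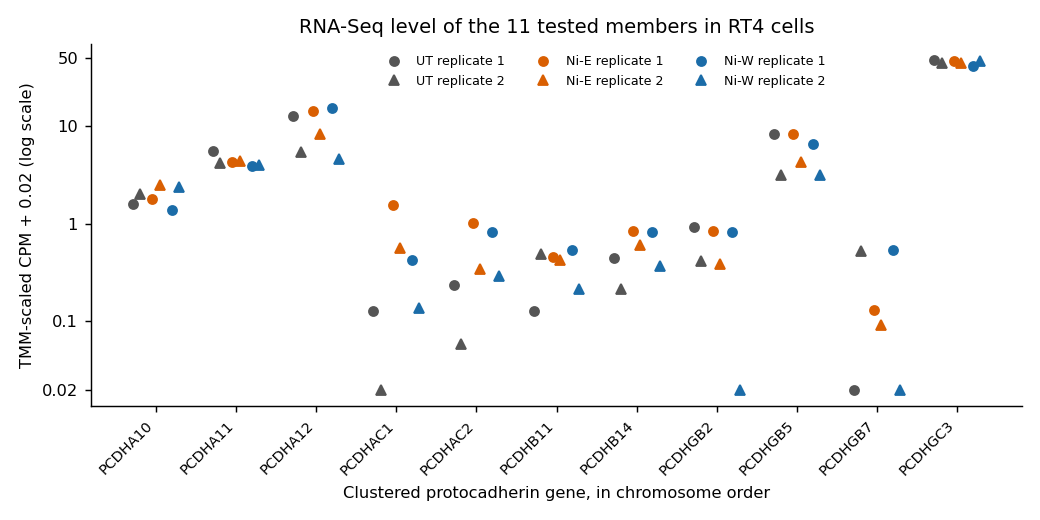
TMM-scaled CPM plus 0.02 (y axis, log scale) of the 11 tested members (x axis, chromosome order) in 6 RT4 libraries, coloured by group, with circles for replicate 1 and triangles for replicate 2. PCDHGC3 lies at 41.4 CPM or above in every library, PCDHA12 and PCDHGB5 separate by replicate, and the UT points of PCDHAC1 and PCDHAC2 lie below those of Ni-E cells.

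Genes linked to the clusters were examined as fixed lists. Of 15 other genes that flank or interrupt the clusters, 0 were higher and 0 lower by 1.5-fold for Ni-E, and 0 higher and 1 lower (WDR55) for Ni-W against UT cells in H3K4me3. Their median log2 ratio was -0.44 for Ni-W, with a median of 8.81 RPKM in UT cells, whereas the alpha members next to them had a median of 0.99 at a far lower level. In RT4 cells edgeR called 0 of the 14 tested neighbours in either comparison, with 1 at an unadjusted p below 0.05 in each, and DESeq2 called 1 for Ni-E and 0 for Ni-W cells. Of the 18 factors that shape or silence the clusters, among them CTCF, cohesin subunits, SMCHD1 and DNA methyltransferases, edgeR called 0 in RT4 cells in either comparison with UT, with 1 and 0 at an unadjusted p below 0.05, and DESeq2 called 1 and 0. In H3K4me3 ATF7IP, a partner of the methyltransferase SETDB1, was the one past 1.5-fold in Ni-W cells, at 5.44 RPKM in UT and 7.98 in Ni-W cells. Of 12 intracellular partners, such as the kinases PTK2 and PTK2B and subunits of the WAVE complex that drives actin assembly, edgeR and DESeq2 each called 0 in RT4 cells, with 1 at an unadjusted p below 0.05 in both tools for Ni-E and 2 for Ni-W cells. In H3K4me3 1 partner was higher in Ni-W than in UT cells (NCKAP1, 5.79 and 6.46 RPKM, a scaled ratio of 1.57-fold). Lower were 2 partners, PTK2B (6.11 and 2.80 RPKM) and WASF2 (8.48 and 4.03 RPKM), and 0 passed 1.5-fold in Ni-E cells. Over all promoters tested 16.8% were higher and 14.7% lower in Ni-W than in UT cells. For the 13701 that averaged 1 RPKM or more, the shares were 3.39% and 18.4%. Median levels of the neighbours, factors and partners in UT cells were 8.81, 7.54 and 7.16 RPKM. Whether these lists differ from such shares was not tested.

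Protocadherins outside the clusters also had low H3K4me3 in several cases. Of 11 tested, 5 were higher by 1.5-fold in Ni-W than in UT cells and 0 lower, and 2 were higher in Ni-E cells. The shares higher in Ni-W and Ni-E cells were 16.8% and 8.87% over all promoters tested. Over those of 0.2 to 2 RPKM they were 36.4% and 20.2%. The largest ratios in Ni-W cells were at PCDH20 (0.458, 0.413 and 2.32 RPKM in the order UT, Ni-E, Ni-W) and PCDH17 (1.4, 1.07 and 4.36 RPKM). In RT4 cells PCDH1 and PCDH7 were abundant, with means of 87.7 and 45.3 TPM. PCDH19 was called lower in Ni-E than in UT cells, with a log2 fold change of -5.15 and an adjusted p of 0.0271 in edgeR. Of 8 neuronal marker genes, 5 were at 0 in all 6 RT4 libraries, and NEFL was called higher in Ni-E cells (log2 fold change 1.83, adjusted p 0.0363 in edgeR). In H3K4me3, 4 of 7 tested neuronal promoters were higher by 1.5-fold in Ni-W than in UT BEAS-2B cells and 0 lower. Over all promoters of 0.2 to 2 RPKM 36.4% were higher and 9.6% lower. ELAVL4, 1 of the 4, had 0.150 RPKM in UT cells and passed the filter only through 0.273 in Ni-E and 0.251 in Ni-W cells. The part of the neuronal promoters in the result for the alpha cluster was not tested. Of 6 mesenchymal promoters 1 was higher and 2 were lower in Ni-W cells, and of 3 blood promoters 1 was higher. Over all promoters tested 16.8% were higher and 14.7% lower. In RT4 cells the 7 mesenchymal genes summed to 1.35 to 6.81 TPM a library and the 5 blood genes to 0.1 to 0.73 TPM, with 3 and 0 of them tested and 0 called by edgeR. Of these 3 mesenchymal genes 2 had an unadjusted p below 0.05 in each comparison with UT, and DESeq2 called 1.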

How the data were processed

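The analysis started from processed tables. Per the labels and the study's methods, the authors mapped ChIP-Seq reads to GRCh38/hg38 (BWA), reduced redundant reads to a single copy, did no peak calling, and deposited RPKM within 2 kb on either side of each transcription start. The values were whole multiples of 1 read's worth (tolerance 0.00055 RPKM), which gave the reads behind each promoter. The deposited RNA-Seq tables hold RSEM estimated counts, TPM and FPKM a gene, of which the authors' FPKM was not used. The methods name STAR with hg19, the submitters' processing notes GRCh38 and hg38, and which alignment fed RSEM is not given in the sources used here. The methods describe 2 biological replicates both for RNA-Seq and for ChIP, but 1 H3K4me3 library a condition was analysed here, and whether it stands for 1 replicate or both is not given in the sources used here.

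H3K4me3 differences were computed after division by the library median for promoters whose mean reached 0.2 RPKM and counted at 1.5-fold. Wilson 95% intervals and floors of 3 reads cover counting error only. Estimated counts were rounded and tested with edgeR 4.0.16 (R 4.3.3, TMM, filterByExpr, quasi-likelihood, all 6 libraries, Benjamini-Hochberg over all genes tested), with a call at an adjusted p below 0.05 and 1.5-fold. DESeq2 1.42.0 and limma 3.58.1 were alternatives. Of 200 genes changed by 4 or 8-fold in simulated counts of 14338 genes for Ni-E against UT, 182 were recovered, with 8 wrong calls. P-values measure the spread between these libraries. Other settings tried were the scaling, filter, fold and pseudocount, the groups fitted, a replicate block, and leaving out each library.

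Members and gene lists were chosen with earlier results of these data known. Named with full values were, for H3K4me3, the 3 highest members of each cluster by mean RPKM, the 5 highest and 5 lowest scores for Ni-W and the 3 highest and lowest for Ni-E against UT, the C-type members and PCDHB1. In RT4 cells they were the 3 highest of each cluster by mean TPM, any member called and the C-type members. From the fixed lists (non-clustered protocadherins, architectural and silencing factors, intracellular partners, chromosome 5 neighbours, cluster pseudogenes, and urothelial, airway, mesenchymal, neuronal and blood markers) up to 4 genes called or past 1.5-fold were named. Promoters came from RefSeq (GRCh38.p14) and gene positions from GENCODE 44.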

Additional observations from a re-analysis of the deposited data

How the results depend on the processing

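The counts of clustered protocadherins past 1.5-fold in H3K4me3 moved with the settings. For Ni-E against UT cells, 14 became 7 without median scaling, 8 with quantile normalization, 6 with scaling by the median of promoters of 0.2 to 2 RPKM (a setting chosen after seeing the data), 2 with a minimum of 1 RPKM and 3 at 2-fold. With the minimum of 1 RPKM only 10 members were left, so that 20.0% were higher against 0.65% of the 13701 promoters tested, and at 2-fold the shares were 5.66% and 1.95%. For Ni-W against UT cells, 22 became 3 with the minimum of 1 RPKM and 10 at 2-fold, and for Ni-W against Ni-E cells, 19 became 4 and 8. In shares these are 30% and 18.9%, against 21.8% and 10.5% of all promoters tested, and 40% and 15.1%, against 33.7% and 9.78%. Of 264 alternative scores of named members, 81 moved by more than the counting error of the main score. The 66 scores on log2(RPKM + 1) could not be counted as moved. The others are on another scale than the main score, so that the 81 mix a change of unit with a change of result. Another scaling changed the sign of 33, 13 without median scaling, 6 with quantile normalization and 14 with the median of promoters of 0.2 to 2 RPKM, among them PCDHB5 (main score 0.13), PCDHGB7 and PCDHGB5 for Ni-W against UT, and none of the 33 had been past 1.5-fold. With 1 library a condition, the depth limits only the counting error.

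In RT4 cells 0 members were called in each comparison under every alternative but one. With the replicate number as a block, 2 were called for Ni-E against UT, PCDHAC1 (log2 fold change 4.28, adjusted p 0.00272 in edgeR) and PCDHAC2 (2.38, adjusted p 0.0273). Deviations of same-numbered libraries from their group means correlated at 0.657 (UT and Ni-E), 0.764 (UT and Ni-W) and 0.689 (Ni-E and Ni-W). Same-numbered libraries were also alike in depth, with 17075833 to 18280556 estimated counts for replicate 1 and 25721265 to 27736454 for replicate 2. However, no label says what same-numbered libraries share, and with 2 pairs a comparison this was not tested. Over all genes the block raised the calls from 314, 87 and 0 to 1833, 1243 and 655 for Ni-E against UT, Ni-W against UT and Ni-W against Ni-E. DESeq2 called 734, 437 and 139, edgeR without a filter 449, 193 and 14, with at least 10 counts in every library 209, 54 and 0, and with only the groups compared 354, 0 and 0. limma called 170, 79 and 0 on log2(TPM + 1) and 186, 75 and 6 on log2(TPM + 0.1). Leaving out 1 library, which leaves a lone sample assumed to vary like the others, gave 0 to 320, 0 to 38 and 0 to 0.

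The log2 fold change of PCDHA11 for Ni-E against UT turned to 0.0056 in limma on log2(TPM + 1) and 0.017 on log2(TPM + 0.1), and ran from -0.34 to 0.055 when 1 library was left out. The same ranges for Ni-E and Ni-W against UT were -0.18 to 1.05 and -0.95 to 0.89 for PCDHA12, -0.41 to 1.00 and -0.84 to 0.64 for PCDHGB5, and -0.057 to 0.040 and -0.14 to 0.049 for PCDHGC3, so none of these directions held. For PCDHAC1 they were 3.18 to 7.55 and 1.13 to 5.50 and for PCDHAC2 1.43 to 3.85 and 1.18 to 3.55. The log2 ratio of summed beta members ran from 1.06 to 1.55 for Ni-E against UT, 0.31 to 1.13 for Ni-W against UT, lowest without Ni-W replicate 1, and -0.98 to -0.16 for Ni-W against Ni-E. Summed gamma members ran from -0.087 to 0.17 and -0.20 to 0.053 for Ni-E and Ni-W against UT. The causes were not tested.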

Other observations

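The 4 pseudogenes of the clusters with a promoter value had H3K4me3 in the range of the protocadherins around them. PCDHB17P had 0.449, 0.633 and 0.409 RPKM in UT, Ni-E and Ni-W BEAS-2B cells, PCDHB18P 1.15, 1.27 and 0.735, PCDHB19P 0.396, 0.520 and 0.401, and PCDHGB8P 0.467, 0.467 and 0.560. In RT4 cells the 4 summed to at most 0.18 TPM in a library, and none passed the expression filter.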
